A study of Mus musculus with 12 samples.

Results

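The Eph, Slit and netrin guidance genes are 37 mouse genes, listed by name, that encode contact-bound and secreted axon guidance cues and the receptors that read them. It holds the Eph receptors, the ephrins, the Slits, the Robo receptors Robo1 to Robo3, the netrins and netrin-Gs, and the netrin receptors Dcc and Unc5a to Unc5d. Of these, 35 had a probe set named for them alone among the 22961 probe sets tested, which is the set every count rests on. Ephb2 and Ntng2 had none and were not analysed here. The genes were followed in 2 populations of cortical neurons at 2 ages, from birth to the second postnatal week, when cortical axons and synapses form.

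Each of the 4 groups had 3 arrays. Pyramidal cells (Pyr) were GFP-positive cells of NexCre;RCE mice at postnatal day 0 (Pyr P0) and day 12 (Pyr P12), and interneurons (IN) were GFP-positive cells of Nkx2-1Cre;RCE mice at day 0 (IN P0) and day 10 (IN P10). All groups were C57BL6, carried Cre and the RCE reporter, which makes GFP wherever Cre has acted, and went through papain dissociation and fluorescence-activated sorting before their RNA was amplified and hybridized. Pyramidal cells came from somatosensory cortex, whereas the IN labels name the cortex without an area. If the dissected area differed, area and population cannot be told apart in the contrasts between IN and Pyr. The older groups are not of the same age, so age and population cannot be told apart in the contrast between them. NexCre marks postmitotic excitatory neurons. Nkx2-1Cre marks mainly descendants of medial ganglionic eminence progenitors, so the IN groups do not stand for interneurons of all origins. The same progenitors also give rise to some glia. The arrays are labelled biological replicates, but nothing in the labels ties them to separate animals, so p-values measure the spread between arrays. In such bulk samples, fewer cells of a type and less RNA per cell cannot be told apart.

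Eph receptors are receptor tyrosine kinases that bind ephrins on the surface of a neighbouring cell, and the signal can run into both cells. Ephrin-As are held in the membrane by a lipid anchor and ephrin-Bs span it. Slits are secreted proteins that repel growing axons and migrating neurons through Robo receptors. Netrins are secreted cues that attract through Dcc and repel through Unc5 receptors, whereas the netrin-Gs are membrane-anchored relatives that bind partner proteins at synapses instead. In the cortex these systems act on the paths of migrating interneurons, on the crossing and targeting of pyramidal axons and on synapses.

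The labels were borne out by most marker genes. All 6 measured pan-interneuron markers, Gad1 among them, were higher in the IN groups at both ages. At each age 7 of 9 pyramidal markers were lower there and 7 of 9 markers of the medial ganglionic eminence lineage were higher. At P0 the pyramidal marker Cux2 went the other way (log2 difference, IN minus Pyr, 0.71). So did Npy of the eminence list (-0.83), and both were under 2-fold. Oligodendrocyte precursor markers were higher in the IN groups too, 8 of 10 at P0 and 10 of 10 in IN P10 against Pyr P12. The mean log2 value of that list lay between 9.86 and 10.51 on the IN arrays and between 8.04 and 8.51 on the Pyr arrays. With age, 5 of 6 pan-interneuron markers fell in Pyr, 4 of 9 pyramidal markers fell in IN and 3 of 9 myelinating oligodendrocyte markers rose in IN. The pan-interneuron list averaged 8.90 to 9.45 on the Pyr P0 arrays and 7.65 to 7.84 in Pyr P12. The pyramidal list averaged 9.04 to 9.53 in IN P0 and 7.92 to 7.97 in IN P10. Each P0 group thus held markers of the other population above background. Their part in the P0 contrasts and the changes with age was not tested. Of the 10 oligodendrocyte precursor markers, Pdgfra, Cspg4 and Vcan fell and Gpr17 and Bcas1 rose in IN, and Vcan fell in Pyr. The microglial and endothelial lists averaged 6.87 to 7.37 on every array, about the background (7.13 to 7.45), and the astrocyte list averaged 7.73 to 8.37. Of its 10 genes, Slc1a2 (log2 change 4.17) and Aldh1l1 (1.29) rose in Pyr and Aldoc (1.29) rose in IN with age, and Aqp4 and Gja1 were not above background in any group. Correlations between arrays were 0.995 to 0.999 within groups and 0.936 to 0.981 between groups, and no array stood with a group other than its own.

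Levels are log2 values after robust multi-array averaging (RMA), and a difference of 1 on that scale is a 2-fold change. A gene was called where the adjusted p was under 0.05 and the fold over 2, and rose, fell, higher and lower refer to such calls. A group was taken as not above background where none of its arrays exceeded the 95th percentile of the olfactory and vomeronasal receptor probe sets on that array, since those genes are not used by cortical neurons. Of the 35 guidance genes, 34 exceeded background on at least 1 array and 33 on all 3 arrays of a group. Epha1 did not exceed it on any array.

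The change with age differed between the populations for 6 members. In 5 of them it was called in Pyr and not in IN: Robo1 and Ephb1 fell, and Robo3, Ephb3 and Slit3 rose. The 250 bases before the RefSeq start of these 5 genes (GRCm38.p6) are shown, since the results on age and population turn on them. Capitals mark the GC box GGGCGG, a binding motif of Sp-family factors, read on either strand, so that CCGCCC is the same motif on the other strand, and overlapping matches were counted.

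Robo1, chr16:72662899-72663148, plus strand: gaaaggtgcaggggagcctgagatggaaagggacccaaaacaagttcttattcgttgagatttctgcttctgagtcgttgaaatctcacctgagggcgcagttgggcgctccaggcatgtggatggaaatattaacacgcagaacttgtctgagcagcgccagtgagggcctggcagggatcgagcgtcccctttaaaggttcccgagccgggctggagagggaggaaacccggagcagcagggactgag
Ephb1, chr9:102354694-102354943, minus strand: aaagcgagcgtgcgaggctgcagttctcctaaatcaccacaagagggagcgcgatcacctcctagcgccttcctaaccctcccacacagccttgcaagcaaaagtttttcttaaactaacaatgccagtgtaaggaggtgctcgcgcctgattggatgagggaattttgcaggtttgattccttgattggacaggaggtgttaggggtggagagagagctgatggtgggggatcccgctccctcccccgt
Robo3, chr9:37433176-37433425, minus strand: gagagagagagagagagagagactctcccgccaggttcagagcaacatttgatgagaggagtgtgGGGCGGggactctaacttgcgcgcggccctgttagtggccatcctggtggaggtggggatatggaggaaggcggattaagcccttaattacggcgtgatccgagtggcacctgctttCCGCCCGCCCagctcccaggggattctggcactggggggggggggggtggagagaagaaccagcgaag
Ephb3, chr16:21204545-21204794, plus strand: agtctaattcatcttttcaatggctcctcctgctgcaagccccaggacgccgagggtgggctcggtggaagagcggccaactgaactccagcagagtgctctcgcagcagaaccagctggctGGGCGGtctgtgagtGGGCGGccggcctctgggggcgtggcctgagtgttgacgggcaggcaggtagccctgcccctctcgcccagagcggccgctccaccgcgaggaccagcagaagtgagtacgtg
Slit3, chr11:35121206-35121455, plus strand: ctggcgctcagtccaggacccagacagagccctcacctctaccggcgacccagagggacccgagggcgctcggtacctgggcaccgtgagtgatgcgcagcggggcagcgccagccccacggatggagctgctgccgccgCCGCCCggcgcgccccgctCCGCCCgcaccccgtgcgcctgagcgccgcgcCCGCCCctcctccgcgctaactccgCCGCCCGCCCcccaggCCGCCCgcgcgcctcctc

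The GC box appeared in 32.7% of the 32851 windows in the table, and in 26 of the 37 windows that matched 32 of the members, some of which have several starts. The windows of Robo1 and Ephb1 held 0 matches, against 3 in Robo3, 2 in Ephb3 and 6 in Slit3. Their GC contents were 56%, 54%, 61.2%, 65.6% and 78.8%, beside a median of 52.4% over all windows. These matches describe the letters and not binding. The windows of the other members called with age are not shown, and a relation to the direction of change was not tested.

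Among the Slit ligands, Slit2 rose with age in both populations and Slit3 rose in Pyr. Slit2 read 9.10, 8.82 and 8.90 on the IN P0 arrays, 11.51, 11.42 and 11.44 in IN P10, 9.90, 9.40 and 9.28 in Pyr P0 and 10.80, 10.89 and 10.97 in Pyr P12. Every older array was above every P0 array. The log2 change was 2.52 (SE 0.13, adjusted p = 2.45e-09, 5.72-fold) in IN and 1.36 (SE 0.13, adjusted p = 7.08e-07) in Pyr. The rise in IN was larger by 1.16 (SE 0.18, adjusted p = 0.000246), and by 0.97, under the fold threshold, without Pyr P0 replicate A. The myelinating oligodendrocyte markers Mag, Cnp and Cldn11 also rose in IN. So did the oligodendrocyte precursor markers Gpr17 and Bcas1, while Pdgfra, Cspg4 and Vcan of that list fell. The part of these markers in the rise of Slit2, Epha10 and Ntn4 in IN was not tested.

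Slit3 had the opposite balance. Its log2 values were 8.17, 8.31 and 8.36 in Pyr P0, 10.20, 10.50 and 10.24 in Pyr P12, 8.68, 8.82 and 8.78 in IN P0 and 9.27, 9.30 and 9.30 in IN P10. It gained 2.04 (SE 0.08, adjusted p = 9.39e-11) in Pyr and 0.53 in IN, a change under 2-fold. The difference between the 2 changes was -1.50 (SE 0.11, adjusted p = 2.88e-07). IN P10 lay below Pyr P12 by -1.02 (adjusted p = 1.51e-07), a call that ended under both other scalings of the arrays and without Pyr P12 replicate B, where the difference was -0.93. Of the 10 astrocyte markers, Slc1a2 and Aldh1l1 rose in Pyr like Slit3, Robo3 and Ephb3. By adjusted p alone 5 of the 10 were higher in Pyr P12 and 3 were lower. The lower ones were Fgfr3 (-0.90), Slc1a3 (-0.46) and Sox9 (-0.23), all under 2-fold. The part of these markers was not tested. Slit1, the remaining Slit, stood at 10.48, 10.52 and 10.67 in Pyr P0 and 9.38, 9.63 and 9.42 in IN P0, lower in IN by 1.08 (log2 difference -1.08, SE 0.07, adjusted p = 8.51e-08). The older arrays held 10.59, 10.64 and 10.75 in Pyr and 10.06, 10.12 and 10.13 in IN, which was no call.

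The Robo receptors moved apart. Robo1 and Robo2 bind the Slits. Robo1 read 12.39, 12.33 and 12.40 in Pyr P0, 10.13, 10.32 and 10.36 in Pyr P12, 11.33, 11.50 and 11.35 in IN P0 and 12.07, 12.10 and 12.11 in IN P10. Pyr was above IN at birth by less than 2-fold (IN minus Pyr -0.98, not called) and below it later, and no arrays overlapped in either comparison. Robo1 fell by 2.10 in Pyr (SE 0.07, adjusted p = 1.47e-11). In IN its change was 0.70, an adjusted p of 8.47e-07 but under 2-fold, and the 2 changes differed by 2.80 (SE 0.09, adjusted p = 2.82e-10), the largest positive difference between populations in the list. IN P10 was above Pyr P12 by 1.82 (adjusted p = 8.98e-11), where the oligodendrocyte precursor markers were also higher, and their part was not tested. Most of these markers were higher in IN at P0 too. Their part was likewise not tested for Efnb3 between the older groups, or for Epha6 and Ephb3 at P0. The part of the pan-interneuron markers that fell in Pyr with age was not tested either.

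Robo3, a divergent Robo known for commissural axons, which in mammals binds Slits poorly, rose in Pyr. It read 6.97, 7.22 and 7.33 in Pyr P0 and 9.82, 9.78 and 10.16 in Pyr P12, a change of 2.75 (SE 0.10, adjusted p = 6.82e-11), with 1 of the 3 P0 arrays above background. The IN arrays read 6.88, 6.98 and 6.91 at P0 and 6.90, 6.96 and 6.99 at P10, none of them above background. Robo3 was therefore at least 6.46-fold higher in Pyr P12 than in IN P10, and the difference between the changes was -2.72 (SE 0.14, adjusted p = 1.59e-08), with the IN side at background. Robo2, a Slit receptor found widely in the forebrain, held 12.90, 12.74 and 12.84 in Pyr P0, 12.34, 12.35 and 12.44 in Pyr P12, 12.36, 12.39 and 12.40 in IN P0 and 12.65, 12.69 and 12.73 in IN P10. Its differences had the signs of those of Robo1 but stayed under 2-fold, at -0.45 in Pyr and 0.30 in IN with age.

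**Figure D1:**
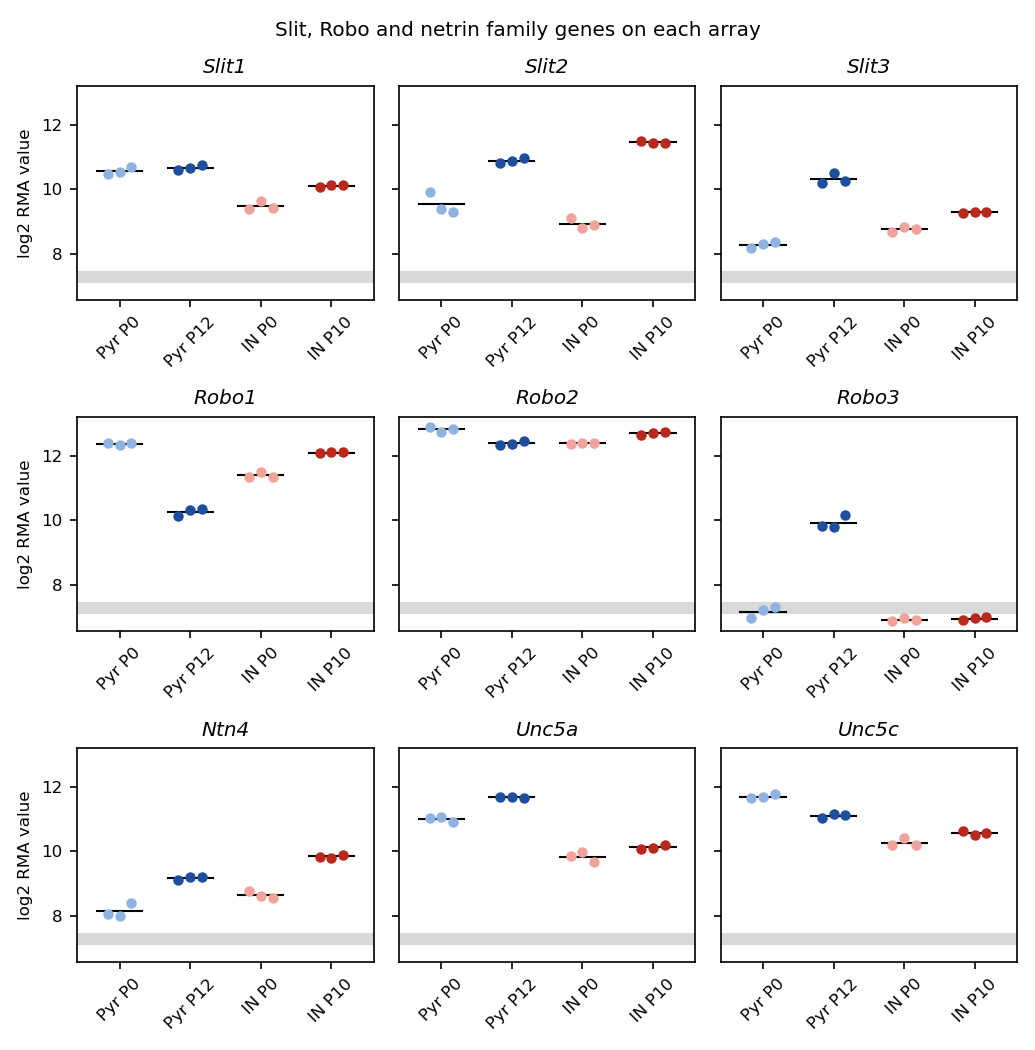
Log2 RMA value of each array (points) and mean of each group (horizontal lines) for the Slit and Robo genes, Ntn4, Unc5a and Unc5c in the 4 groups, with a grey band for the background over the arrays (7.13 to 7.45). Robo1 fell from about 12.4 to 10.3 in Pyr and did not in IN, Slit2 rose in both, and all 3 arrays of Robo3 were above background in Pyr P12 alone.

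Among the EphA receptors, Epha3 fell in both populations, Epha4 and Epha6 rose in Pyr, and Epha10 rose in IN. Epha3 read 11.75, 11.38 and 11.32 in Pyr P0, 9.10, 9.25 and 9.20 in Pyr P12, 10.54, 10.55 and 10.64 in IN P0 and 9.28, 9.18 and 9.29 in IN P10. It was higher in Pyr than IN at birth by less than 2-fold, and the older groups overlapped. The log2 change was -2.30 (adjusted p = 1.54e-10) in Pyr and -1.32 (SE 0.09, adjusted p = 5.01e-08) in IN. Of the 10 oligodendrocyte precursor markers, 3 fell in IN like Epha3 and Efnb2 (Pdgfra, Cspg4 and Vcan) and 2 rose (Gpr17 and Bcas1). Of the 9 pyramidal markers, 4 fell in IN (Neurod6, Neurod2, Tbr1 and Cux2). The part of either list was not tested.

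Epha4, which binds ephrins of both classes and acts in corticospinal axon guidance, was the member with the largest called excess in Pyr at the older age after Robo3. Its values were 11.82, 11.75 and 11.78 in Pyr P0, 12.83, 12.80 and 12.81 in Pyr P12, 10.30, 10.36 and 10.28 in IN P0 and 10.59, 10.63 and 10.69 in IN P10. Pyr exceeded IN on every array at both ages. The difference, IN minus Pyr, was -1.47 at P0 (adjusted p = 1.32e-10) and -2.18 between the older groups (adjusted p = 1.52e-12, 4.52-fold), and the change in Pyr with age was 1.03 (SE 0.05, adjusted p = 7.81e-10). The last is at the fold threshold and was not called when arrays were centred on their medians.

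Epha6 and Epha10 had their highest mean in IN P10. Epha6 read 8.85, 9.13 and 8.45 in Pyr P0, 10.31, 10.55 and 10.41 in Pyr P12, 9.93, 9.78 and 9.81 in IN P0 and 10.80, 10.85 and 10.84 in IN P10. It rose by 1.61 in Pyr (SE 0.13, adjusted p = 1.16e-07), and its 0.99 in IN lay just under 2-fold. At P0 it was higher in IN by 1.03 (adjusted p = 2.91e-05), a difference of 0.98 without IN P0 replicate A and 0.85 without Pyr P0 replicate C, neither of them called. Epha10, which lacks kinase activity, read 8.47, 8.46 and 8.53 in IN P0, 9.63, 9.67 and 9.96 in IN P10, 8.31, 8.38 and 8.62 in Pyr P0 and 9.03, 9.21 and 9.36 in Pyr P12, a log2 change of 1.27 (SE 0.10, adjusted p = 2.43e-07) in IN. A second probe set for Epha10 gave 0.88 there, which was no call.

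Of the other EphA receptors, Epha5 had group means of 11.12 to 11.49 and Epha2 of 7.52 to 7.76. Epha7, a receptor patterned across the cortical sheet, was highest in Pyr P0 at a mean of 11.76 and lay at 11.05, 11.18 and 10.97 in Pyr P12, IN P0 and IN P10. Epha8 came close to a call in Pyr, with a log2 difference of 0.99 between P12 and P0 (adjusted p = 8.5e-08).

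Of the EphB receptors, which bind mainly ephrin-Bs, Ephb3 and Ephb1 moved in opposite directions in Pyr. Ephb3 read 8.41, 8.29 and 8.36 in Pyr P0, 10.56, 10.71 and 10.66 in Pyr P12, 9.67, 9.80 and 9.78 in IN P0 and 9.53, 9.61 and 9.64 in IN P10. It began below IN in Pyr and ended above it. The log2 change was 2.29 in Pyr (SE 0.06, adjusted p = 3.19e-12, 4.89-fold) and -0.15 in IN, and the 2 changes differed by -2.44 (SE 0.08, adjusted p = 3.28e-10). At P0 it was higher in IN by 1.39 (adjusted p = 9.38e-10), and among the older groups lower in IN by 1.05 (log2 difference -1.05, adjusted p = 6.81e-09), a call that a second quantile normalization ended.

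Ephb1 read 10.86, 10.86 and 10.96 in Pyr P0, 9.73, 9.76 and 9.76 in Pyr P12, 8.37, 8.96 and 8.32 in IN P0 and 9.50, 9.40 and 9.55 in IN P10. The gap at birth, -2.34 (adjusted p = 7.41e-09, 5.08-fold lower in IN), had narrowed to -0.27 (adjusted p = 0.0963) between the older groups. The arrays of the older groups did not overlap. Ephb1 fell in Pyr by 1.15 (log2 difference -1.15, SE 0.12, adjusted p = 3.13e-06), and the changes differed by 2.08 (SE 0.18, adjusted p = 1.16e-06). Its second probe set made the same 3 calls, at -1.45 at P0, -1.21 in Pyr and 1.13 between the changes, but gave -0.07 for age in IN against 0.93 here. Between the older groups it gave -0.32 (adjusted p = 0.00638), also under 2-fold. Ephb6, which lacks kinase activity, rose in Pyr by 1.09 (SE 0.08, adjusted p = 7.25e-08), from 10.77, 10.86 and 10.87 to 11.91, 11.91 and 11.96. Ephb4, best known from vessels, lay near background with group means of 7.40 to 8.02.

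Among the ephrin-Bs, which serve as ligands and as receptors, Efnb1 and Efnb2 fell and Efnb3 parted the older groups. Efnb2 read 12.14, 11.89 and 11.92 in Pyr P0, 10.78, 10.85 and 10.96 in Pyr P12, 11.81, 11.89 and 11.84 in IN P0 and 9.95, 9.79 and 9.84 in IN P10. The P0 groups lay side by side, at a log2 difference of -0.14, and both older groups were below them. It fell by 1.98 in IN (SE 0.07, adjusted p = 1.58e-10) and by 1.12 in Pyr (adjusted p = 1.97e-08). IN P10 was below Pyr P12 by a log2 difference of -1.003 (adjusted p = 1.04e-07), right at the fold threshold, and that call ended without IN P10 replicate B, without IN P10 replicate C, without Pyr P12 replicate C and under both other scalings of the arrays.

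Efnb1 read 10.51, 10.24 and 10.36 in Pyr P0, 8.78, 8.83 and 8.68 in Pyr P12, 9.76, 9.75 and 9.76 in IN P0 and 8.89, 8.82 and 8.86 in IN P10. The P0 arrays were above the older ones throughout. The decrease was -1.60 in Pyr (SE 0.07, adjusted p = 2.02e-10), while the -0.90 of IN stayed under 2-fold. Efnb3, a ligand known for repelling corticospinal axons at the midline, read 10.01, 10.04 and 10.17 in Pyr P12 against 11.15, 11.22 and 11.22 in IN P10, higher in IN by 1.13 (SE 0.06, adjusted p = 5.26e-09). At P0 it read 10.85, 10.73 and 10.80 in Pyr and 11.04, 11.08 and 10.91 in IN, a difference of 0.22.

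Of the ephrin-As, Efna4 was called, and in Pyr alone, where it fell from 9.34, 9.08 and 9.58 to 8.20, 8.21 and 8.06 (log2 difference -1.17, SE 0.10, adjusted p = 2.49e-07). The difference between that change and the -0.20 of IN was 0.97, which did not reach the fold threshold. Efna5, a ligand with graded expression in cortex and thalamus, had an older-group difference of -0.995 (adjusted p = 1.45e-06) that fell just short of 2-fold. Efna2 and Efna3 kept group means of 9.80 to 10.5 and 11.13 to 11.83. Efna1 exceeded background on 1 Pyr P0 and 2 IN P0 arrays and on no older array.

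**Figure D2:**
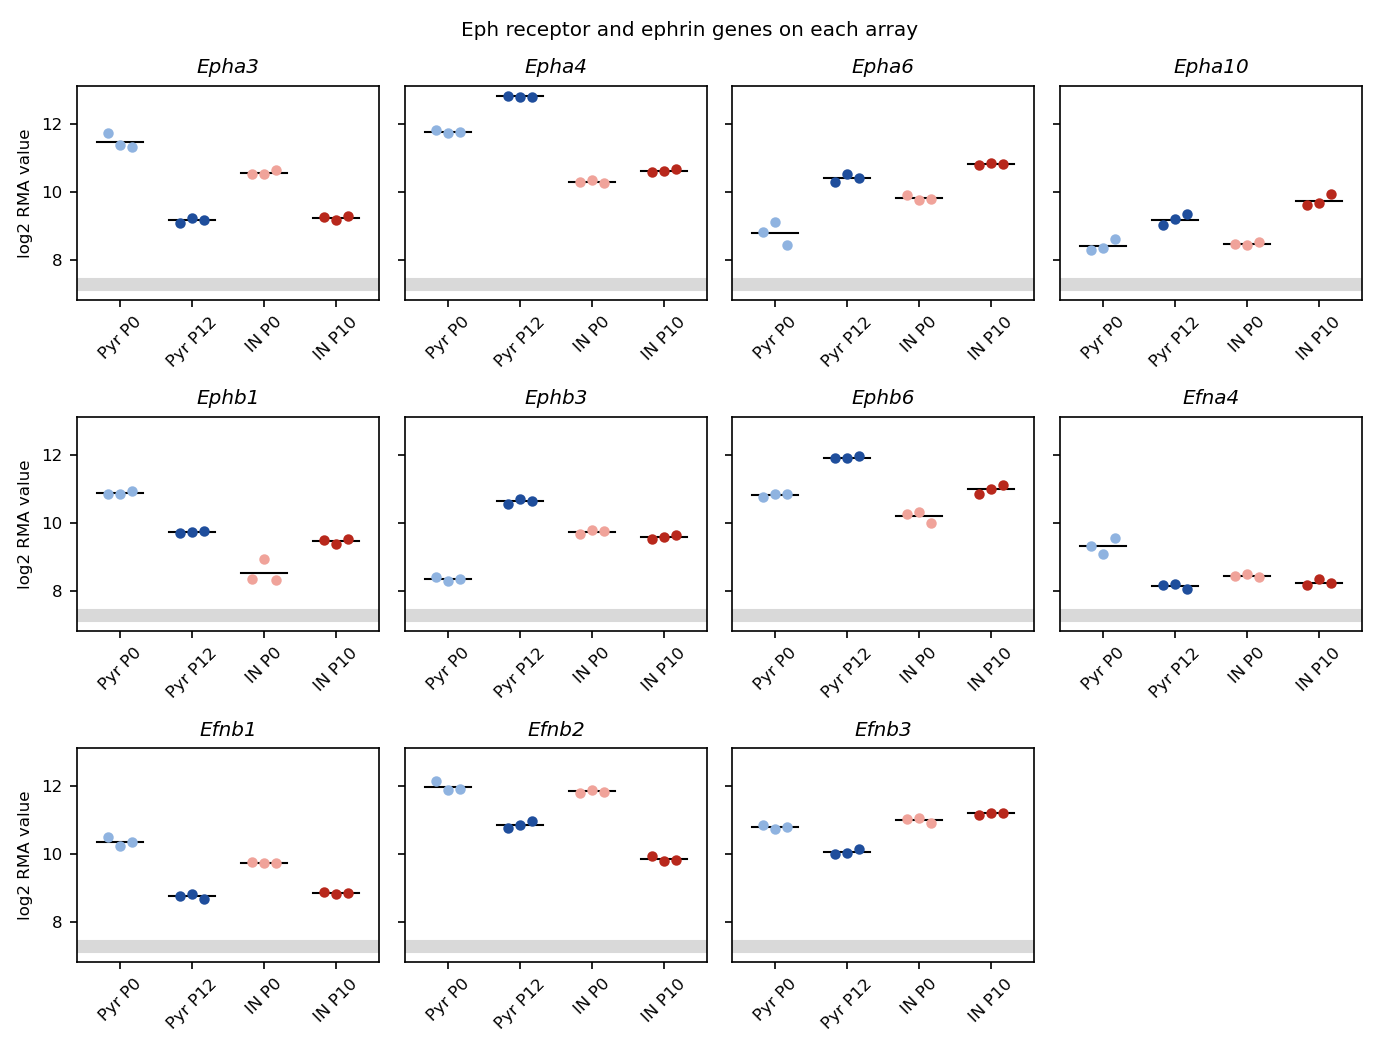
Log2 RMA value of each array (points) and mean of each group (horizontal lines) for the 11 Eph receptor and ephrin genes called in at least 1 contrast, in the 4 groups, with a grey band for the background. Ephb3 rose and Ephb1 fell in Pyr with age, Epha4 was higher in Pyr than IN at both ages, and Epha3 and Efnb2 fell in both populations.

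Of the secreted netrins, Ntn4, a laminin-related netrin, rose in both populations. It read 8.78, 8.62 and 8.57 in IN P0, 9.81, 9.80 and 9.90 in IN P10, 8.06, 7.99 and 8.39 in Pyr P0 and 9.11, 9.22 and 9.19 in Pyr P12, with the older arrays above the P0 arrays in each population. The log2 change was 1.18 in IN (SE 0.09, adjusted p = 1.3e-07) and 1.02 in Pyr (adjusted p = 4.39e-07). The call in Pyr ended without Pyr P0 replicate A, without Pyr P0 replicate B, without Pyr P12 replicate B and under both other scalings. Ntn1, the ligand of Dcc, had group means of 8.22 to 8.78 and was highest in IN P10.

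Ntng1, which binds the synaptic protein encoded by Lrrc4c, had group means of 8.61 to 8.89 by the brighter of its probe sets. The dimmer probe set rose with age, by 1.32 in IN (adjusted p = 5.81e-09) and 1.17 in Pyr (adjusted p = 1.2e-08), so the 2 probe sets of this gene disagreed.

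The repulsive netrin receptors Unc5a and Unc5c were lower in IN at birth. Unc5a read 11.04, 11.07 and 10.91 in Pyr P0, 11.67, 11.69 and 11.66 in Pyr P12, 9.86, 9.98 and 9.66 in IN P0 and 10.05, 10.11 and 10.20 in IN P10. Every Pyr array was above every IN array. The log2 difference, IN minus Pyr, was -1.17 at P0 (adjusted p = 5.09e-08) and -1.55 between the older groups (SE 0.08, adjusted p = 1.82e-09). Unc5c read 11.64, 11.67 and 11.78 in Pyr P0 and 10.19, 10.42 and 10.19 in IN P0, a difference of -1.43 (SE 0.07, adjusted p = 3.13e-09). The older groups, 11.03, 11.16 and 11.11 in Pyr and 10.62, 10.50 and 10.58 in IN, lay closer and were not called. Unc5d had a log2 difference of 0.99 with age in Pyr, also under the fold threshold. Dcc, the attractive receptor, had group means of 11.03, 10.85, 10.92 and 10.39 in Pyr P0, Pyr P12, IN P0 and IN P10. Unc5b stood near background, at 7.31 to 7.81.

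Across the 35 measured members, 19 (54.3%) were called in at least 1 of the 4 contrasts between groups, beside 15.0% of all tested probe sets and 21.0% of those above background on all 3 arrays of a group. All 34 of their called differences were between groups whose arrays did not overlap, which a fold over 2 makes likely with 3 close arrays per group. The same share over all called probe sets was not computed, so this is no separate support. The 16 members not called were Epha1, Epha2, Epha5, Epha7, Epha8, Ephb4, Efna1, Efna2, Efna3, Efna5, Robo2, Ntn1, Ntng1, Dcc, Unc5b and Unc5d. Of the 33 members above background on all 3 arrays of a group, 13 had their highest mean in Pyr P0, 13 in Pyr P12 and 7 in IN P10.

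With age in IN, 3 members rose (Epha10, Slit2 and Ntn4; 8.57% beside 4.19% of all tested probe sets) and 2 fell (Epha3 and Efnb2; 5.71% beside 2.85%). The median log2 change of the members was 0.18, beside 0.0019 for all tested probe sets. In Pyr, 8 rose (Epha4, Epha6, Ephb3, Ephb6, Slit2, Slit3, Robo3 and Ntn4), which is 22.9% beside 5.68%, and 6 fell (Epha3, Ephb1, Efna4, Efnb1, Efnb2 and Robo1), which is 17.1% beside 3.48%. The members' median change in Pyr was 0.08 beside 0.06. Epha3 and Efnb2 fell and Slit2 and Ntn4 rose in both populations.

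Between the older groups, 2 members were higher in IN P10 (Efnb3 and Robo1; 5.71% beside 2.65% of all tested probe sets) and 6 were lower (Epha4, Ephb3, Efnb2, Slit3, Robo3 and Unc5a; 17.1% beside 2.91%). Under a second quantile normalization 3 were lower. At P0, 2 were higher in IN (Epha6 and Ephb3; 5.71% beside 1.90%) and 5 were lower (Epha4, Ephb1, Slit1, Unc5a and Unc5c; 14.3% beside 1.74%). The members' median log2 difference, IN minus Pyr, was -0.17 between the older groups, where that of all tested probe sets was -0.07, and -0.28 at P0, where that of all tested probe sets was -0.0043. Epha4 and Unc5a were lower in IN at both ages.

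Smaller differences were common among the members. By adjusted p alone, 26 of the 35 differed with age in IN beside 45.5% of all tested probe sets, 28 with age in Pyr beside 54.7%, 26 between the older groups beside 46.6%, 25 between the P0 groups beside 22.4% and 26 in age by population beside 32.1%. With a fold over 1.5 as well, 12, 22, 12, 14 and 18 of the 35 remained, beside 18.9%, 20.9%, 13.1%, 7.30% and 12.7% of all tested probe sets. The member numbers here are counts out of 35 and not percentages.

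**Figure D3:**
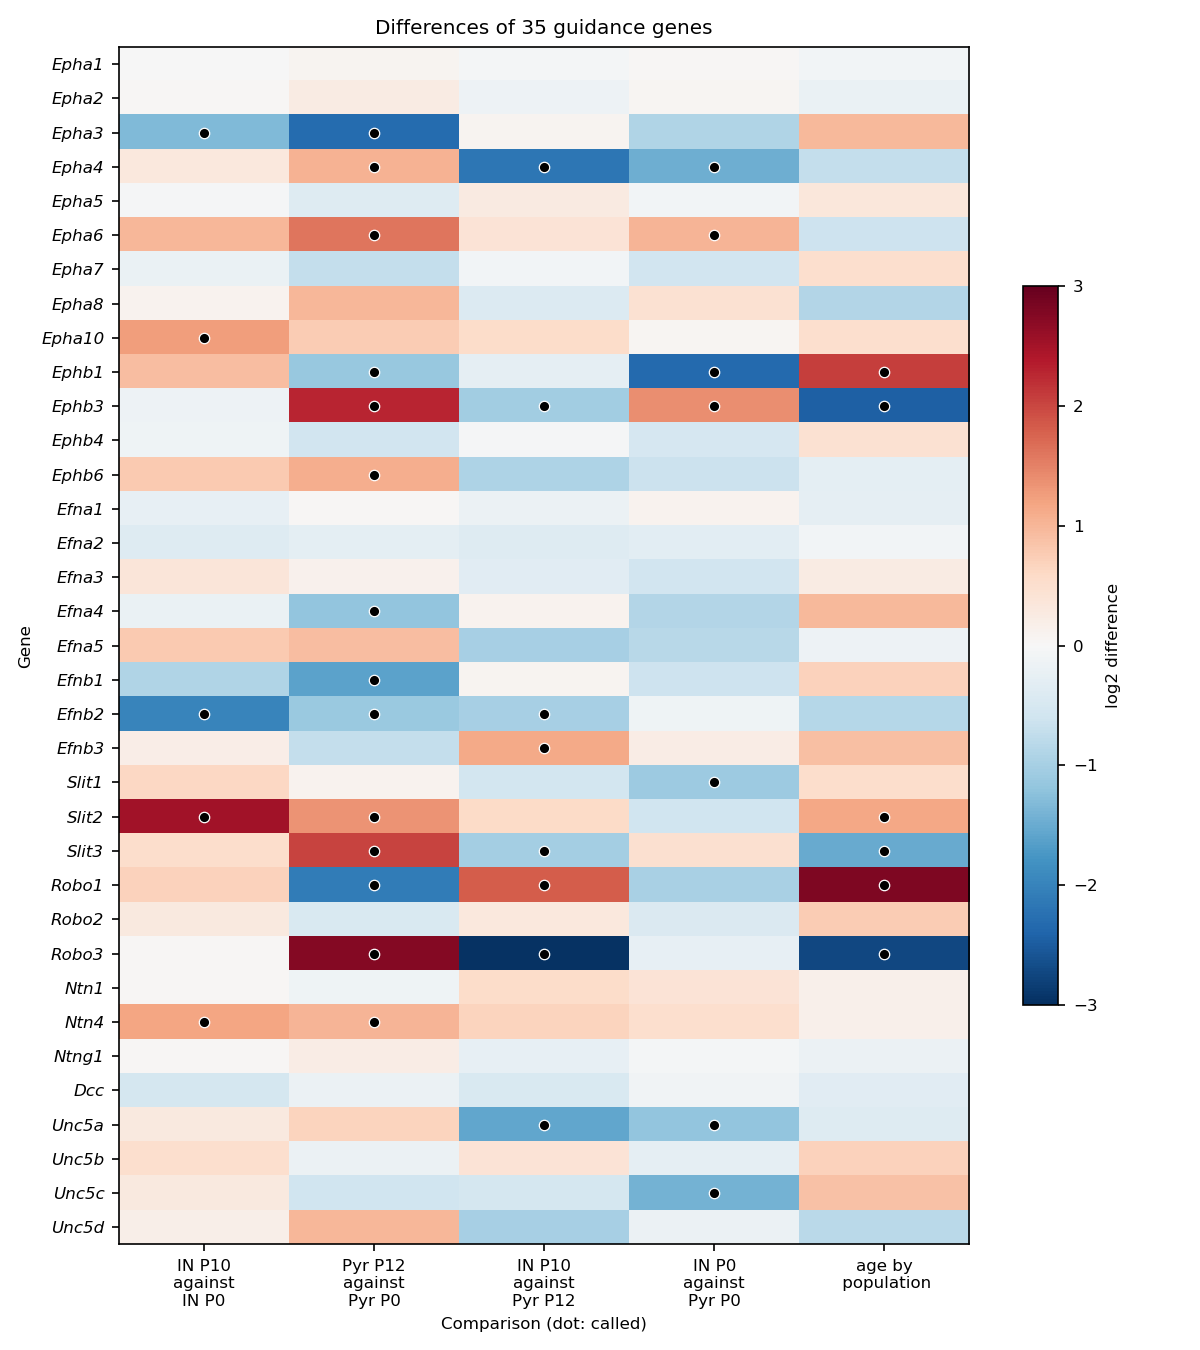
Heat map of the log2 difference of each measured member in the 5 contrasts, with a dot on the called differences and colours from -3 (blue) to 3 (red). Robo1 and Ephb1 carry opposite signs to Robo3 and Ephb3 in the change of Pyr with age, and Epha4 and Unc5a are lower in IN at both ages.

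The change with age differed between IN and Pyr beyond both thresholds for 6 members. Ephb1, Slit2 and Robo1 had the larger value in IN (8.57% of the members, beside 2.24% of all tested probe sets), and Ephb3, Slit3 and Robo3 had the larger value in Pyr (8.57% beside 2.63%). Slit2 was called with age in each population, and the other 5 in Pyr alone. The interval ran to P10 in IN and to P12 in Pyr.

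**Figure D4:**
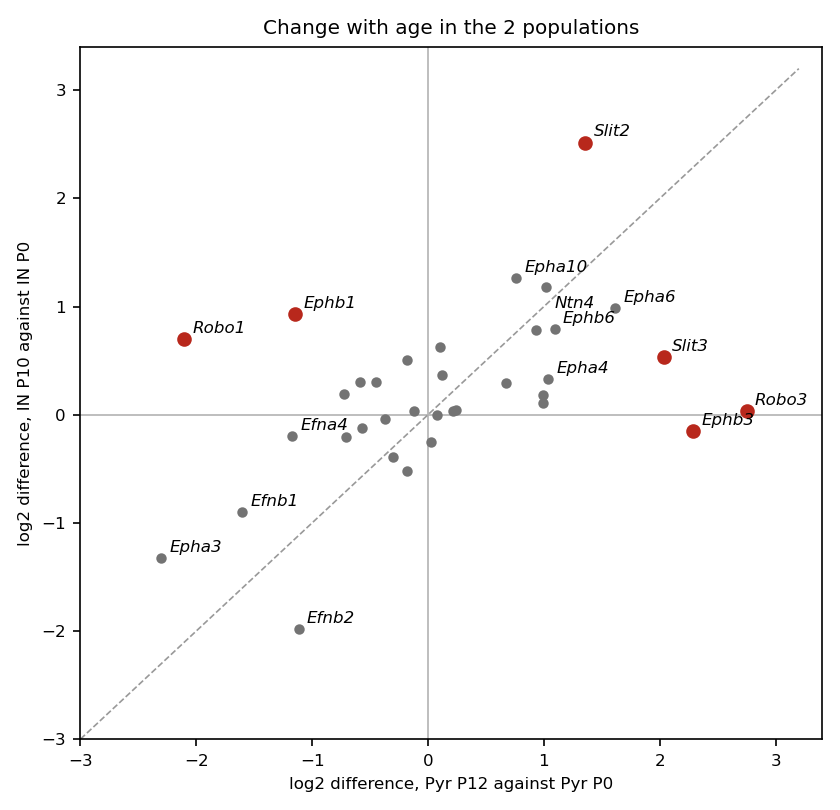
Log2 change with age in Pyr (P12 minus P0, horizontal axis) against that in IN (P10 minus P0, vertical axis) for the measured members, with a dashed line of equal change and red points for the 6 members called in age by population. Robo1 (-2.10 in Pyr, 0.70 in IN) and Ephb1 lie above the line, and Robo3, Ephb3 and Slit3 lie below it.

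Of 49 genes listed as ligands, co-receptors and effectors of the same pathways, 47 were measured. With age, 2 rose (4.26% beside 4.19% of all tested probe sets) and 2 fell (4.26% beside 2.85%) in IN, shares near the background, and 4 rose (8.51% beside 5.68%) and 6 fell (12.8% beside 3.48%) in Pyr. The secreted repellent Draxin, which binds Dcc, fell in both, with log2 changes of -1.80 in IN (adjusted p = 9.31e-09) and -3.39 in Pyr (adjusted p = 1.37e-11). Srgap1, a GTPase-activating protein that acts under Robo, had a change of -2.61 in Pyr (adjusted p = 1.59e-12). Ngef, the exchange factor ephexin-1 that acts under EphA4, rose in Pyr by 2.34 (adjusted p = 1.38e-11). Lrrc4c, the ligand of netrin-G1, rose in IN by 2.09 (adjusted p = 2.26e-09), and Sdcbp, a PDZ protein that binds ephrin-B tails, fell by 1.12 there.

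Between the populations at the older age, 4 partners were higher in IN (8.51% beside 2.65% of all tested probe sets) and 4 lower (8.51% beside 2.91%), led by Ngef (-1.93), the exchange factor Vav2 (1.73) and Draxin (1.53). At P0, 2 were higher (4.26% beside 1.90%) and 4 lower (8.51% beside 1.74%), led by the actin-binding Ablim1 (-2.12), Lrrc4c (-1.90) and the neogenin ligand Rgma (-1.68). The change with age differed between populations for 9 partners, 6 with the larger value in IN (12.8% beside 2.24%) and 3 with the larger value in Pyr (6.38% beside 2.63%), and was led by Ablim1 (2.02), Srgap1 (1.66) and Draxin (1.60). The median log2 differences of the partners lay between -0.09 and 0.07 in the 5 contrasts.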

How the data were processed

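RNA of the 12 sorted samples was hybridized to Affymetrix Mouse Gene 1.0 ST arrays. The authors deposited log2 values per probe set after RMA (background correction, quantile normalization and summary), which pulls arrays to 1 distribution and compresses differences of dim probe sets. The annotation release and genome build are not given in the sources used here. Symbols came from GEO's platform annotation. Of 28192 probe sets, 21640 had 1 symbol, 1321 had several and 5231 had none, and the 22961 with a symbol were tested.

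limma 3.58.1 in R 4.3.3 (lmFit and eBayes) fitted 4 group means with 8 residual degrees of freedom. p-values were adjusted by Benjamini-Hochberg over all tested probe sets. The thresholds (adjusted p under 0.05, fold over 2) are the study's. The study used SAM, run here as an alternative. Each gene was represented by the probe set with the highest mean over the 12 arrays. Background was the 95th percentile of 1208 receptor probe sets per array. Where a group was not above it, a fold is a lower bound, "at least". The number of arrays limits the precision.

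Values on every array are given for the 3 called members with the largest change in each direction of each contrast and for members of the same ligand or receptor family set beside them. The 3 called partners with the largest change per contrast are named. Members, lists and markers were chosen with earlier results of these data known. Arrays with the same replicate letter were checked for pairing: their deviations from group means correlated at -0.18 to 0.19. Arrays with different letters were not compared, so the check cannot decide whether the arrays were paired. The main fit left them unpaired. The calling script was tested on simulated data. Promoter windows came from RefSeq by symbol. Figures were drawn with matplotlib 3.10.9.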

Additional observations from a re-analysis of the deposited data

Results flagged for a closer look

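The test of a difference between IN and Pyr in their change with age (limma, IN change minus Pyr change, log2) singled out 6 members: Robo1 at 2.80, Ephb1 at 2.08, Slit2 at 1.16, Slit3 at -1.50, Ephb3 at -2.44 and Robo3 at -2.72. Robo1 and Ephb1, a Slit receptor and an ephrin-B receptor, were both highest in Pyr P0. Robo3, Ephb3 and Slit3 were highest in Pyr P12. The value of Robo3 rests on IN arrays that were not above background, and that of Slit2 was 0.97 without Pyr P0 replicate A. The populations were sampled at P10 and P12, so age and population cannot be told apart at the later stage. A second probe set of Ephb1 gave 1.13.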

How the results depend on the processing

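The 40 called differences of 19 members had 908 alternative values. Of these, 889 kept their direction and call, 19 kept their direction but lost the call and 0 reversed. Many could not reverse. SAM, the filters on probe sets, the stricter adjusted p and leaving out an array of another group do not alter the log2 difference. The setting with the other probe set repeats the main value for genes with 1 probe set. The totals are therefore no measure of robustness. Of the 25 settings, the fold over 1.5 and no fold threshold entered the counts alone. The counts of called members (5, 14, 8, 7 and 6 in IN with age, Pyr with age, the older groups, the P0 groups and age by population) were the same with a replicate block, which was run although the labels do not say that the letters pair the arrays. Leaving out 1 array gave 5 to 6, 13 to 16, 7 to 9, 6 to 8 and 5 to 8. A fold over 1.5 gave 12, 22, 12, 14 and 18 of the 35 (18.9%, 20.9%, 13.1%, 7.30% and 12.7% of all tested probe sets), and no fold threshold gave 26, 28, 26, 25 and 26 (45.5%, 54.7%, 46.6%, 22.4% and 32.1% of all tested). A second quantile normalization left 5 in the older groups, 2 higher and 3 lower, without Ephb3, Efnb2 and Slit3. Centring on medians gave 12 in Pyr with age (without Epha4 and Ntn4), 6 in the older groups (2 higher, 4 lower, without Efnb2 and Slit3) and 8 in age by population (5 higher, 3 lower, with Epha3 and Efna4 added). The cause of these losses was not tested, and the values concerned lay near the 2-fold threshold. SAM, the filter on dim probe sets and an adjusted p under 0.01 gave the main counts. Signal near background limits Robo3, Epha1, Epha2, Ephb4, Efna1 and Unc5b, whose differences can be understated there.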
